A study of Bos taurus with 6 samples.

Results

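Mitochondrial ribosomal proteins are the protein subunits, encoded in the nucleus, of the ribosome that works inside mitochondria. The array in this study named 67 of their genes, those with a symbol of the MRPL or MRPS series, among the 6423 named genes that could be tested in longissimus dorsi muscle from the loin of bulls. A probe set was used if it carried 1 gene symbol and had present calls on 3 or more of the 6 arrays. Where several probe sets of a gene passed, the brightest by mean signal gave the gene's value. All 67 genes on the array passed, through 80 of their 84 probe sets. A further 11 MRPL and MRPS genes of the RefSeq gene table, MRPL1 and MRPS12 among them, had no probe set named by that symbol alone and were not analysed here. On detection, 66 of the 67 genes were called present on all 6 arrays. On the probe set that gave its value, MRPS9 passed on 3 present calls, all at 24 months, so it could pass only through the age at which it was higher. The 4 probe sets left out had 0 or 1 present calls, and each belonged to a gene with a brighter or better detected probe set.

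The mitochondrial ribosome translates the few messages of the mitochondrial genome, all of which encode core subunits of respiratory chain complexes and of ATP synthase. Its large subunit joins amino acids and holds the exit tunnel, and its small subunit binds the message and decodes it. Some subunits descend from proteins of the bacterial ribosome, while others are found in mitochondria and have no bacterial counterpart. Skeletal muscle depends on this ribosome for oxidative energy supply, because the complexes it feeds cannot be completed without the mitochondrially made subunits.

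The samples came from male cattle of the Chinese Red Steppe breed, all on a standard diet, killed at 1 month or at 24 months of age. RNA of 18 bulls, 9 of each age, was mixed in pools of 3 bulls, with 1 Affymetrix bovine array for each pool (n = 3 in each age group). Below, the calf pools carry the numbers 1, 2 and 3 of their labels, and those of the older bulls the numbers 2, 3 and 4. Errors therefore describe how pools differ, since no array held a single animal. The labels give no treatment that separated the ages.

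Levels are given as log2(intensity + 16), from the intensities as the authors deposited them, whose array medians were nearly equal. A change is the 24-month mean minus the 1-month mean on that scale, and ± marks the standard error (SE) of the limma fit unless SD is written. A gene is called changed at a Benjamini-Hochberg adjusted p under 0.05 over all 13204 tested probe sets. Levels of different genes are not compared, because probe sets differ in brightness for reasons other than abundance. In bulk muscle, fewer cells of a type and less RNA per cell cannot be told apart.

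For the muscle label, 7 of 10 listed myofibre genes were tested, ACTA1, CKM and MYH7 among them, and summed to an intensity of 54131 to 55479 at 1 month and 69128 to 70856 at 24 months. Present calls covered 49.0% to 52.5% of probe sets at 1 month and 54.8% to 56.3% at 24 months. The log2 ratio of 3' to 5' actin signal, which rises with RNA degradation, was 0.85, 0.69 and 0.46 in 1-month pools 1, 2 and 3 and 0.22 to 0.26 at 24 months. In a second table of the same arrays that the authors deposited, that ratio was -0.30 to -0.17 at 1 month and -0.26 to -0.16 at 24 months, so the ages overlapped there.

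Most mitochondrial ribosomal protein genes showed no change with age that passed the test. By limma 1 of the 67 genes, MRPL42, was lower at 24 months, and 0 were higher. Over all tested probe sets 4.99% were called lower and 14.0% higher, so the members' counts of 1 and 0 did not exceed the background. At an unadjusted p under 0.05, 7 members were lower and 2 higher (MRPS25 and MRPS9, the latter having entered only through its 24-month calls). The share of all tested probe sets at that threshold was not taken. These counts, and those given below for smaller lists at that threshold, are therefore a description. The fitted change was below 0 for 45 genes and above 0 for 22, with a median of -0.12, while the median over all tested probe sets was 0.06. The changes ran from -1.17 for MRPL50 to 0.66 for MRPS25, and 56 of the 67 were smaller than 0.5 in size. The median SE was 0.21, and for 51 genes the 95% interval lay within -1 to 1, which is within a 2-fold change either way. The intervals of the other genes reached beyond a 2-fold change.

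**Figure D1:**
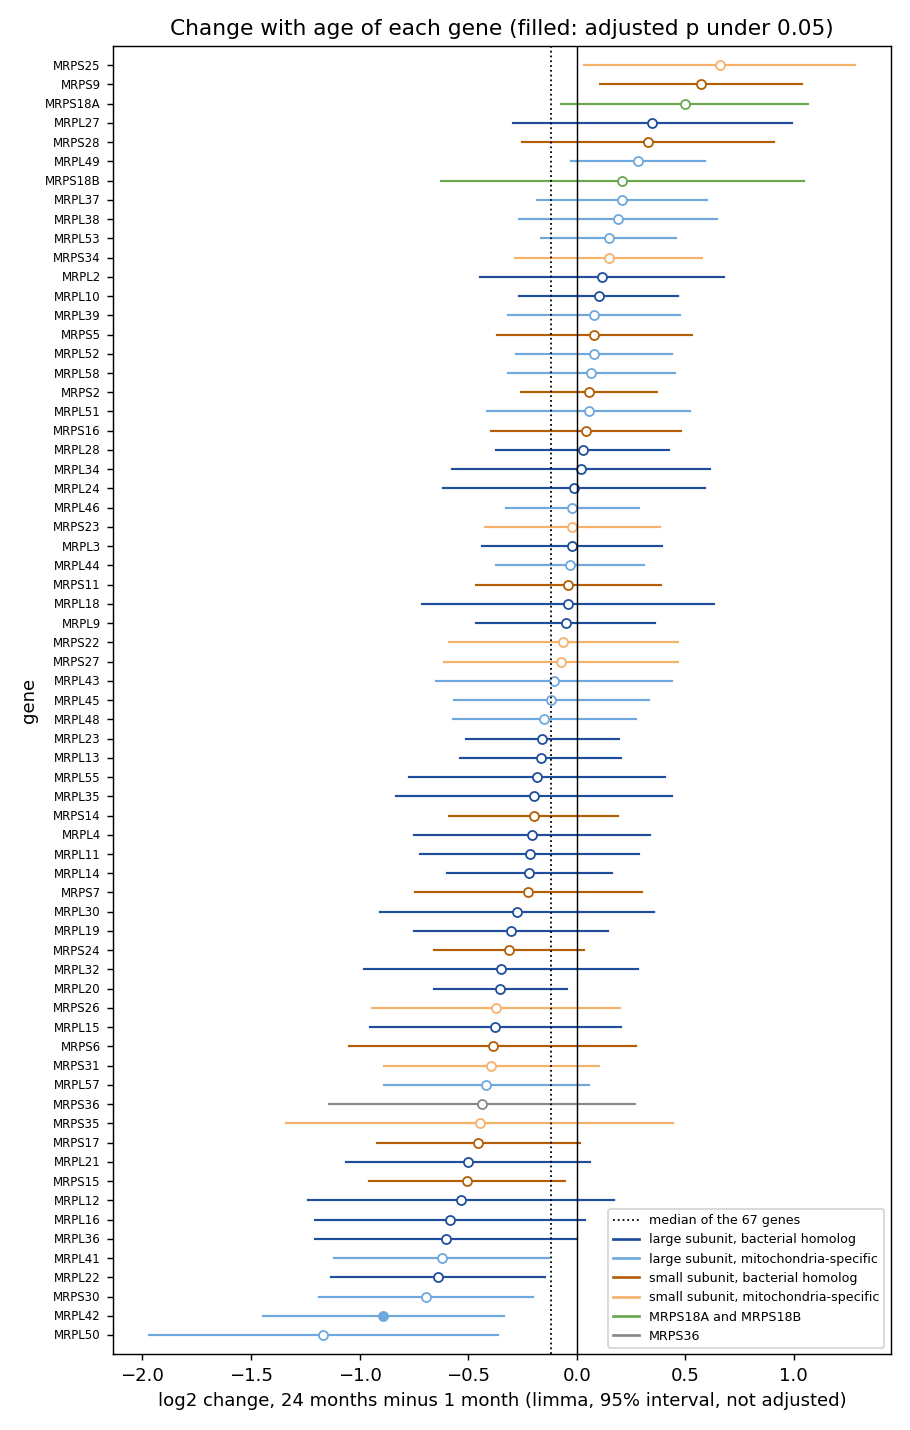
Change of each of the 67 genes in log2(intensity + 16), 24 months minus 1 month, with its 95% limma interval, ordered by size and coloured by structural group; filled points have an adjusted p under 0.05. MRPL42 is the 1 filled point, and the dotted line marks the median of -0.12.

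The 3 pools of one age lay wholly above the 3 of the other for 11 members. For 9 of them the 24-month pools were lower (MRPL20, MRPL22, MRPL41, MRPL42, MRPL50, MRPS15, MRPS17, MRPS24 and MRPS30), and for 2 they were higher (MRPL49 and MRPS9). Over all tested probe sets 16.1% were separated in the lower direction and 27.2% in the higher, so neither count exceeded its background. MRPS9, having passed the filter only through the older pools, adds nothing to the count of higher members.

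The large subunit held 45 of the genes, counting MRPS30 and MRPS18A, whose products sit in the large subunit despite their names. Their median change was -0.15, with 31 fitted lower and 14 higher. The 21 genes of the small subunit had a median of -0.06, with 13 fitted lower and 8 higher. The difference between the subunits was not tested.

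Among the 18 large subunit genes without a bacterial counterpart, the median change was -0.02 and 1 gene passed. MRPL42, one of these mitochondria-specific subunits, stood at 9.31, 10.16 and 9.53 in 1-month pools 1, 2 and 3, and at 8.79, 8.60 and 8.94 in 24-month pools 2, 3 and 4. Every 1-month pool stood above every 24-month pool, and pool 2 was the highest of the calves. MRPL42 fell by 0.89 ± 0.23, or 1.85-fold (limma adjusted p = 0.0413, 95% interval -1.44 to -0.33). The call was lost without 24-month pool 2, 3 or 4 (limma adjusted p of 0.128, 0.151 and 0.107). In those fits the calls over all tested probe sets also dropped, from 2513 to between 526 and 689. The MRPL42 call was also lost with quantile normalization (0.0514), the actin ratio as a covariate (0.250) and the replicate number as a block (0.0718). That block draws on pool numbers 2 and 3 only, which occur in both ages. The change stayed between -1.07 and -0.64 when any single pool was left out.

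MRPL50, another mitochondria-specific subunit, had the largest fitted fall but did not pass. Its levels were 8.92, 9.04 and 10.20 in 1-month pools 1, 2 and 3 and 8.24, 8.01 and 8.42 in 24-month pools 2, 3 and 4. The ages did not overlap, yet 1-month pool 3 was 1.16 above the next calf pool. The fitted change was -1.17 ± 0.34 (adjusted p = 0.0547 by limma). Without 1-month pool 3 it was -0.76 and passed (adjusted p = 0.0185), and without pool 1 it was -1.40 and passed too (adjusted p = 0.0371).

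MRPS30, a large subunit protein in spite of its name, stood at 8.45, 8.95 and 9.24 at 1 month and at 8.14, 8.16 and 8.25 at 24 months. The older pools lay close together and the calf pools were spread, with pool 1 nearest to the older bulls. The change was -0.69 ± 0.21 (limma adjusted p = 0.0590), and it passed without 1-month pool 1 (-0.91, adjusted p = 0.0126). MRPL41 stood at 9.20, 9.97 and 9.81 in the calf pools and at 8.99, 9.08 and 9.05 in the older ones, a change of -0.62 ± 0.21 (limma adjusted p = 0.0807). Again pool 1 was the calf pool next to the older bulls, and MRPL41 passed without it (-0.85, adjusted p = 0.0117). MRPL49 went the other way by 0.28 ± 0.13 and did not pass (limma adjusted p = 0.172), although its calf pools (7.62 to 7.83) and older pools (7.93 to 8.15) did not overlap. MRPL38 (0.19 ± 0.19) and MRPL53 (0.15 ± 0.13), also of this group, did not pass and overlapped between the ages, and both were fitted lower with the actin covariate (-0.52 and -0.08).

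Of the 26 large subunit genes with a bacterial counterpart 21 were fitted lower and 5 higher, with a median of -0.20, and none passed (limma; 2 were lower at an unadjusted p under 0.05). MRPL22, whose product lines the exit tunnel of the nascent chain, stood at 9.24, 9.47 and 8.90 in the calf pools and at 8.68, 8.24 and 8.77 in the older ones. The ages did not overlap, but 1-month pool 3 lay near 24-month pool 4, and the change of -0.64 ± 0.21 did not pass (limma adjusted p = 0.0750). Without 1-month pool 3 it was -0.79 and passed (adjusted p = 0.0299). MRPL20, homologous to a bacterial protein needed to assemble the large subunit, ran from 9.86 to 10.08 at 1 month and from 9.48 to 9.65 at 24 months. Its calf pools differed less than those of most members (SD 0.12, n = 3), and the change was -0.35 ± 0.13 (limma adjusted p = 0.100). MRPL36 (-0.60 ± 0.26, limma adjusted p = 0.141) and MRPL16 (-0.58 ± 0.26, limma adjusted p = 0.162) were highest in 1-month pool 3, at 9.63 and 9.84, where the other calf pools were 8.58 to 9.17. Without that pool their changes were -0.34 and -0.30. MRPL27 had the largest rise of the group, 0.35 ± 0.27, with 1-month pool 3 at 9.25 below all other pools (10.09 to 10.38), and its change was 0.03 without that pool. MRPL9 (-0.05 ± 0.17) and MRPL14 (-0.22 ± 0.16) overlapped between the ages. MRPL12, a stalk protein of the large subunit that translation factors contact, gave -0.53 ± 0.30, while MRPL10, which anchors it, gave 0.10 ± 0.16, and neither passed (limma adjusted p = 0.242 and 0.677). These 2 stalk genes were chosen for their role after their values were seen.

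In the small subunit the 12 genes with a bacterial counterpart had a median change of -0.12 and none passed (limma; 1 was lower and 1 higher at an unadjusted p under 0.05). MRPS15 stood at 8.98, 9.67 and 9.19 in the calf pools and at 8.78, 8.72 and 8.83 in the older ones. The groups did not overlap and the older pools were nearly equal (SD 0.06, n = 3), but the change of -0.50 ± 0.19 did not pass (limma adjusted p = 0.107). Without 1-month pool 1 it was -0.65 and passed (adjusted p = 0.0460). MRPS17 (-0.45 ± 0.20, limma adjusted p = 0.150) had its highest value in the same calf pool, at 10.23 in pool 2. MRPS14 gave -0.20 ± 0.16. Its probe set carries the array's suffix for probes shared between transcripts.

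MRPS9, homologous to a bacterial protein of the small subunit's head, stood at 6.10, 6.29 and 6.73 at 1 month and at 6.94, 7.13 and 6.77 at 24 months. On this probe set no calf pool called it present and every older pool did. Since it passed the filter only through the older pools, its values are given as a description, with no test read from them. In the fit the 24-month level was 1.49-fold that of 1 month, a point value that leaves out the error of the fit. With the actin ratio as a covariate the fitted change was -0.15 instead of 0.57, so its direction depended on that setting.

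The 8 small subunit genes without a bacterial counterpart had a median of -0.07, 6 of them fitted lower. MRPS25 had the largest fitted rise of all members and did not pass (0.66 ± 0.26, limma adjusted p = 0.124). Its calf pools stood at 7.47, 8.45 and 7.80 and its older pools at 8.35, 8.81 and 8.54, so that 1-month pool 2 overlapped the older bulls. Without that pool the rise was 0.93 and passed (adjusted p = 0.0320). MRPS35 gave -0.45 ± 0.38 because 1-month pool 3 stood at 9.41, above all other pools (7.79 to 8.36), and its change was 0.00 without that pool. MRPS27 (-0.07 ± 0.23), a protein with RNA-binding repeats, and MRPS23 (-0.02 ± 0.17) overlapped between the ages.

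MRPS18A and MRPS18B are paralogs related to bacterial protein S18, the first placed in the large subunit and the second in the small. Both were low in 1-month pool 1 and almost equal across the older pools. MRPS18A stood at 7.25, 7.81 and 8.22 at 1 month and at 8.22, 8.27 and 8.28 at 24 months (0.50 ± 0.24, limma adjusted p = 0.185). With the actin ratio as a covariate its change was -0.53 (adjusted p = 0.208). MRPS18B ran from 7.74 in pool 1 to 9.26 in pool 3 at 1 month and from 8.61 to 8.67 at 24 months (0.21 ± 0.35, limma adjusted p = 0.706). MRPS36, first described as a ribosomal subunit and later assigned to the 2-oxoglutarate dehydrogenase complex, stood at 9.97, 10.83 and 9.76 at 1 month and at 9.68, 9.51 and 10.06 at 24 months, with overlap between the ages (-0.44 ± 0.30, limma adjusted p = 0.331).

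**Figure D2:**
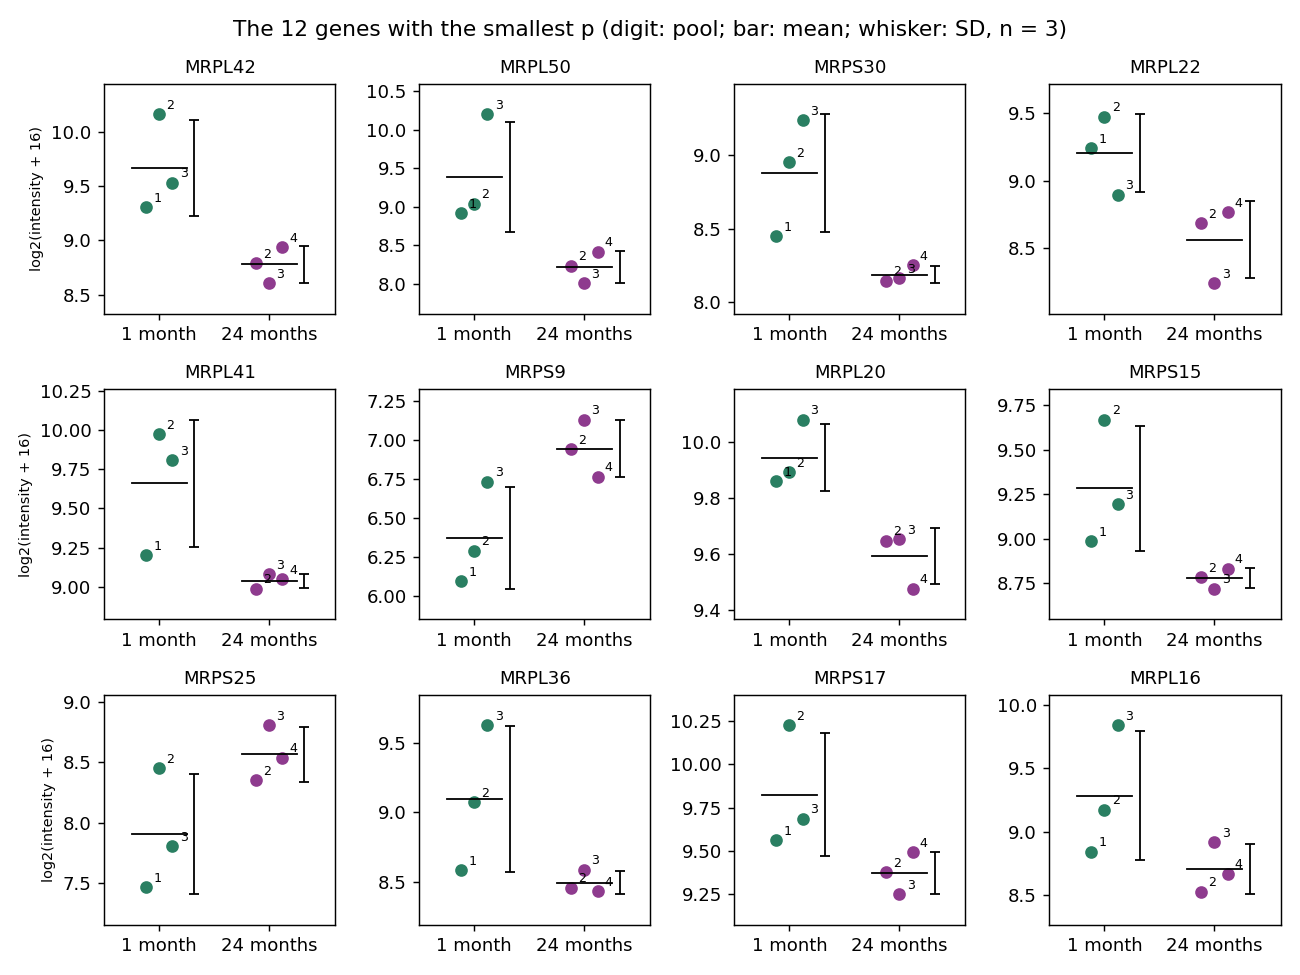
Level in log2(intensity + 16) of the 12 genes with the smallest p in each pool, by age; digits are pool numbers, horizontal bars the means and whiskers the SD (n = 3 pools). The 24-month pools lie close together in most panels, while the 1-month pools are spread, as for MRPL50 with pool 3 at 10.20.

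For 11 genes several probe sets were tested, and for 9 of them these had the same sign. The exceptions were MRPL43 (-0.11 and 0.02) and MRPS34 (0.15 and -0.16), none of whose probe sets passed. MRPL23, near the exit tunnel of the large subunit, was named after its values were seen because its probe sets disagreed in size. On the brightest the calf pools stood at 9.61, 9.90 and 9.81 and the older pools at 9.50, 9.82 and 9.52, and the change of -0.16 ± 0.15 did not pass (limma adjusted p = 0.483). On a second probe set the calf pools stood at 9.82, 10.03 and 9.93 and the older pools at 9.13, 9.39 and 9.15, with no overlap. That probe set fell by 0.71 ± 0.13 (limma adjusted p = 0.0162), and the remaining one fell by 0.68 ± 0.16 (limma adjusted p = 0.0278). The first of these calls was lost without each 24-month pool (adjusted p up to 0.0846), and the second also without 1-month pool 2 (up to 0.113). Both were lost with the actin covariate (0.109 and 0.126), and the second in the second table without normalization (0.0518). Of the 80 tested probe sets 3 were thus called lower, the 2 of MRPL23 and that of MRPL42, and 0 higher by limma. The shares over all tested probe sets were 4.99% lower and 14.0% higher. With the mean of all tested probe sets per gene, MRPL23 and MRPL42 were both called lower.

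The members differed more among the calf pools than among the older pools. The median SD between pools was 0.35 at 1 month and 0.13 at 24 months, a ratio of 2.62, and the SD was larger at 1 month for 58 of the 67 genes (86.6%). Over all tested probe sets the median SDs were 0.26 and 0.12, a ratio of 2.21, and 80.6% had the larger SD at 1 month. The wider spread of the calf pools was thus also present over the probe sets as a whole. The largest calf SDs were those of MRPS35 (0.78), MRPS18B (0.77), MRPL50 (0.71) and MRPL12 (0.61), with 0.28, 0.03, 0.21 and 0.17 at 24 months (n = 3 pools each).

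**Figure D3:**
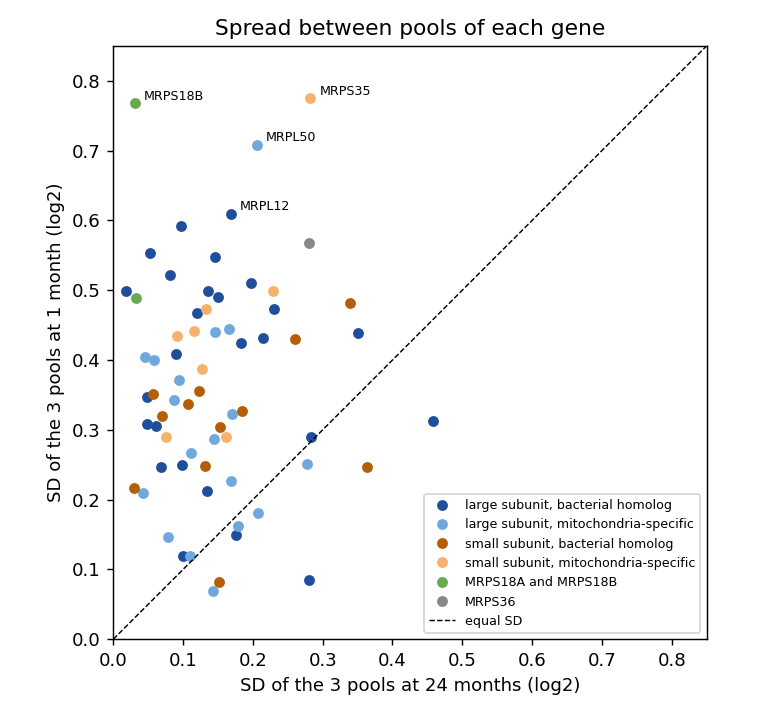
SD between the 3 pools at 1 month against that at 24 months for each of the 67 genes, in log2 units, coloured by structural group. Points above the dashed line of equal SD (58 of 67) were more variable among the calf pools.

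The calf pools also differed in order. Pool 2 was the highest of the 3 calf pools for 40 members, pool 3 for 24 and pool 1 for 3. Pool 1 was the lowest for 43 members, pool 3 for 20 and pool 2 for 4. Over all tested probe sets the shares were near even, with pool 2 the highest for 26.9% and pool 1 the lowest for 29.7%. Measured as the median deviation of the 67 genes from their own means over 6 arrays, the calf pools 1, 2 and 3 stood at -0.17, 0.28 and 0.07 and the older pools 2, 3 and 4 at -0.15, 0.04 and -0.05. The calf pools thus enclosed the older ones, and the large and small subunits gave the same order of calf pools (-0.15, 0.28 and 0.07 against -0.23, 0.26 and 0.07). In the second deposited table the medians were -0.30, 0.45 and 0.14 in the calf pools, with pool 1 again lowest and pool 2 highest.

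**Figure D4:**
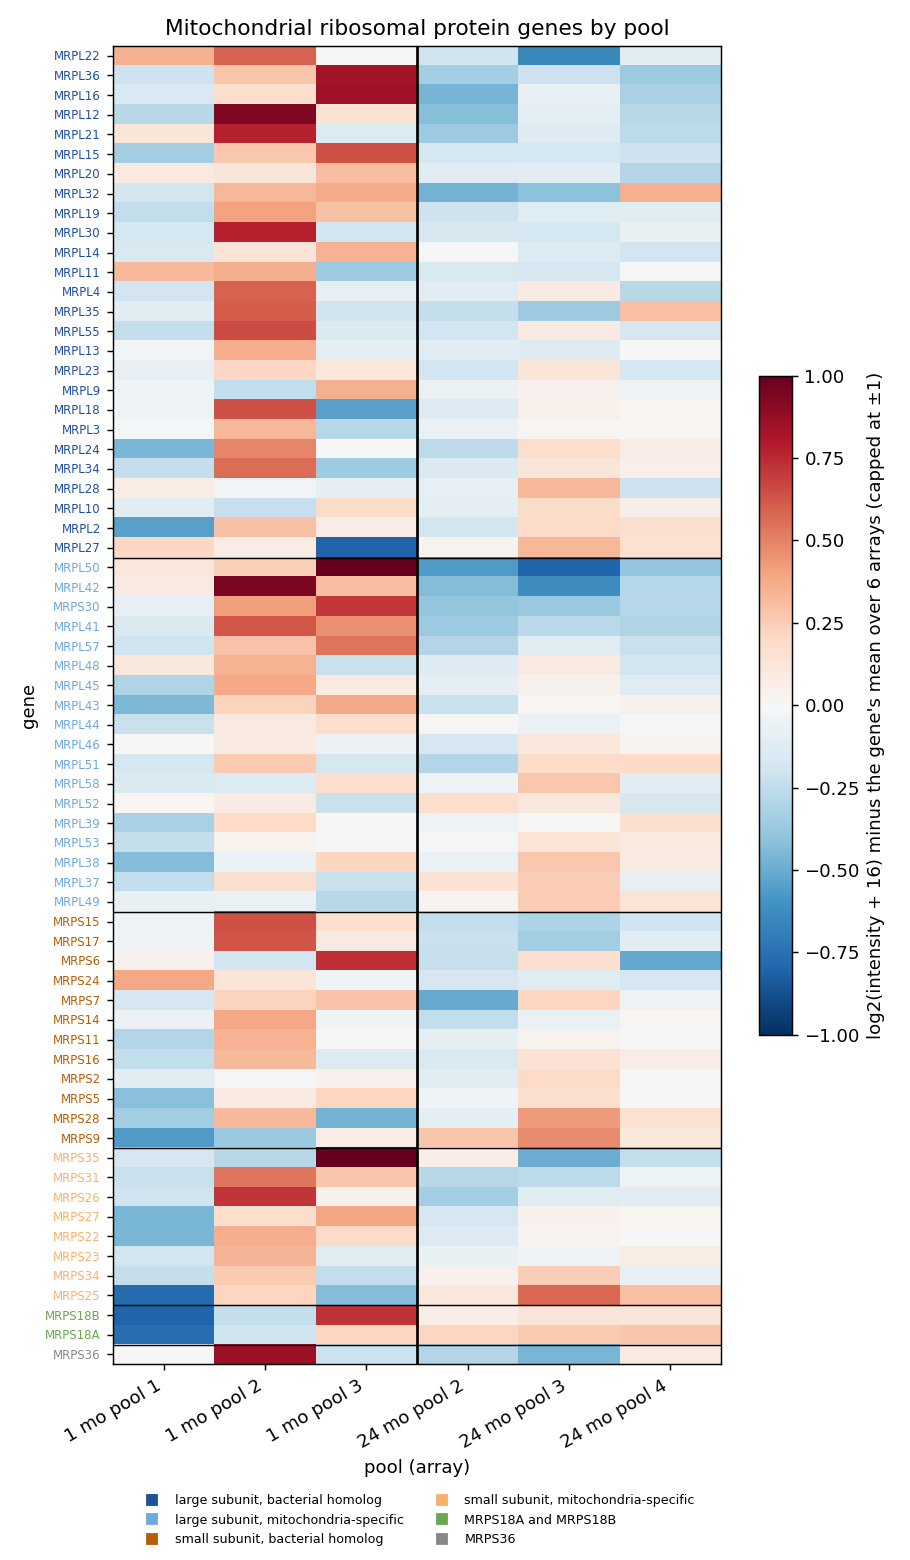
Level of each of the 67 genes in each pool as log2(intensity + 16) minus the gene's mean over 6 arrays (red above, blue below, colours capped at 1 and -1), by structural group and change with age. The 1-month pool 2 column is mostly red and the pool 1 column mostly blue, and 1-month pool 3 stands out for MRPL50, MRPL36, MRPL16 and MRPS35.

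Members were sorted by the calf pool in which they stood highest, a sorting that any gene allows. The gap to the next calf pool was over 0.7 for MRPL12, MRPL30, MRPL34, MRPL35, MRPL55 and MRPS36 in pool 2, and for MRPL50, MRPS18B and MRPS35 in pool 3, where it was 1.16, 0.96 and 1.29. These genes were listed after their values were seen, and the share of all tested probe sets with such a gap was not taken.

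Single calf pools decided how many members were called. Without 1-month pool 1, in which most members were lowest, 10 members were called lower by limma (MRPL15, MRPL19, MRPL36, MRPL41, MRPL42, MRPL50, MRPL57, MRPS15, MRPS30 and MRPS31) and the median was -0.24, where 5.42% of all tested probe sets were called lower. Without 1-month pool 2, in which most were highest, the median was 0.012, with MRPL42 lower and MRPS25 higher (6.0% and 11.4% of all tested probe sets). Without 1-month pool 3, 4 were called lower (MRPL11, MRPL22, MRPL42 and MRPL50) and 2 higher (MRPS18A, and MRPS9 with its calls only at 24 months), beside 7.76% and 18.6% of all tested probe sets. Without any one of the 24-month pools, none was called in either direction by limma, and the calls over all tested probe sets dropped from 2513 to between 526 and 689.

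Markers of other cell types and RNA quality also differed between the calf pools, and their part in these values was not tested. The 7 listed fibroblast genes, all tested and led by collagens, summed to an intensity of 24913, 7192 and 8684 in 1-month pools 1, 2 and 3 and to 6059 to 7817 at 24 months. The 3 tested of 6 adipocyte genes summed to 3445, 904 and 1145 in the calf pools and to 1177 to 1482 in the older ones. The pool with the lowest mitochondrial ribosomal protein levels was therefore also the one with the highest collagen, adipocyte and actin ratio values. Of 6 erythroid genes 2 were tested, with sums of 2427, 2430 and 150 in the calf pools and 63.0 to 72.0 in the older ones. These 2 genes went opposite ways, HBB by -4.38 and AHSP by 0.45, so the sums followed HBB. The 6 tested of 8 leukocyte genes summed to 1381, 652 and 765 in 1-month pools 1, 2 and 3 and to 494 to 565 at 24 months. Among them S100A8 (-1.87) and S100A12 (-2.37) were called lower, while PTPRC (-0.05), CD3E (-0.07), CD68 (-0.16) and CD14 (0.39) were not called. The 5 tested of 7 endothelial genes summed to 1460 to 1784 at 1 month and 936 to 1069 at 24 months. No tested marker was listed at 0. With the actin ratio of each array as a covariate, 7 members were called lower by limma (MRPL15, MRPL16, MRPL36, MRPL50, MRPL57, MRPS18B and MRPS30), the median was -0.33, and 2.58% of all tested probe sets were called lower. MRPS18B, fitted higher without the covariate, was among them. The ratio in the main table, which this fit used, was higher in every calf pool than in every older pool, so the fit cannot separate it from age. In the second deposited table the ages overlapped in this ratio.

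In the second deposited table after quantile normalization, 4 members were called lower (MRPL22, MRPL42, MRPL52 and MRPS30), 0 were called higher by limma and the median was -0.23, where 4.73% of all tested probe sets were called lower. MRPL42 was thus called in both tables.

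The proteins of the cytosolic ribosome and of respiratory complex I, whose mitochondrially encoded subunits this ribosome makes, were set beside the members. Of 65 tested cytosolic ribosomal protein genes 34 were called lower and 0 higher by limma, with a median of -0.47, and for 56 of them the pools of the ages did not overlap in the lower direction. Of 36 complex I genes of the NDUF series 2 were lower and 3 higher, with a median of 0.01. Over all tested probe sets 4.99% were called lower, 14.0% higher, and 16.1% were separated in the lower direction. The members had 1 of 67 lower and a median of -0.12, and the differences between sets were not tested.

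**Figure D5:**
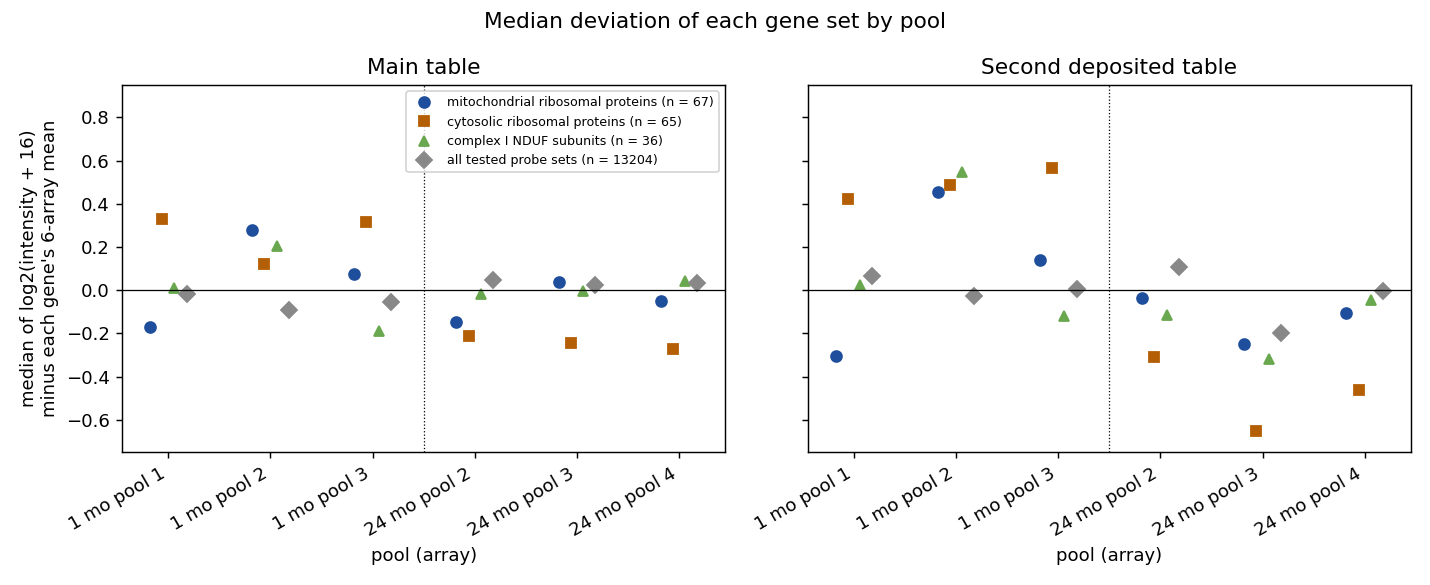
Median deviation, in log2 units, of each gene set from its genes' 6-array means in each pool, in the main table (left) and the second deposited table (right). Cytosolic ribosomal proteins separate the ages, mitochondrial ribosomal proteins run from -0.17 to 0.28 among the calf pools of the main table, and complex I genes are highest in 1-month pool 2.

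The order of the calf pools also differed between these sets. Among cytosolic ribosomal protein genes pool 2 was the lowest calf pool for 60 of 65, where it was the highest for 40 of the 67 members. Among complex I genes pool 2 was the highest for 33 of 36. In the second table pool 2 was the lowest calf pool for 21 of the 65 cytosolic genes, so their order there was not the same, while it was the highest for 43 of the 67 members and all 36 complex I genes.

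Among other genes of mitochondrial translation none passed. The 5 tested of 6 subunits that carry other names, DAP3, PTCD3, CHCHD1, AURKAIP1 and GADD45GIP1, had a median change of -0.15 and none passed (limma, 0 at an unadjusted p under 0.05). AURKAIP1 gave -0.37 ± 0.16 (adjusted p = 0.147) and CHCHD1 0.18 ± 0.13 (0.351). The 12 tested of 17 listed translation factors had a median of 0.02 (limma, 1 higher at an unadjusted p under 0.05). GFM2, an elongation factor homolog that recycles the ribosome, stood at 6.26, 6.90 and 7.64 at 1 month and at 7.71, 8.01 and 7.84 at 24 months (0.92 ± 0.33, limma adjusted p = 0.0939), with present calls in 2 of the 3 calf pools. Its change was 1.27 without 1-month pool 3 (adjusted p = 0.00947), 0.58 without pool 1 (0.136), 1.24 in the second table after quantile normalization (0.0326), and -0.58 with the actin covariate (0.169). MTRF1L, a release factor, gave -0.24 ± 0.11 (limma adjusted p = 0.180). The 14 tested of 24 listed genes for aminoacyl-tRNA formation, synthetases besides GATB and GATC, had a median of -0.05 (limma, 3 lower at an unadjusted p under 0.05). MARS2, which charges the methionine tRNA, gave -0.45 ± 0.14 (limma adjusted p = 0.0691, and 0.0326 without 1-month pool 1) and HARS2 -0.30 ± 0.11 (0.103).

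Factors that assemble the ribosome or modify its RNA were fitted higher for 13 of 16 tested genes (29 listed), with a median of 0.18, and 1 rose. Of all tested probe sets 14.0% were called higher. TFB1M, which methylates the RNA of the small subunit, stood at 7.17, 7.41 and 7.23 in the calf pools and at 7.85, 8.02 and 7.86 in the older ones. The ages were well apart and TFB1M rose by 0.64 ± 0.13 (limma adjusted p = 0.0199), a call lost without each 24-month pool (adjusted p up to 0.0937), in the second table without normalization (0.0955) and with the actin covariate (0.219). Among 9 tested of 17 genes for replication, transcription and RNA handling of the mitochondrial genome none passed, with a median of -0.20 (limma, 1 lower and 1 higher at an unadjusted p under 0.05). TEFM, a transcription elongation factor, gave -0.66 ± 0.20 (limma adjusted p = 0.0576) and POLG, the DNA polymerase, 0.29 ± 0.12 (0.128).

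Of 6 tested regulators of mitochondrial biogenesis (12 listed) 1 passed, beside 4.99% of all tested probe sets called lower and 14.0% higher. MYC, a growth-promoting transcription factor, fell by 2.28 ± 0.48, from 8.16, 7.43 and 9.49 in the calf pools to 6.28, 6.03 and 5.92 in the older ones (limma adjusted p = 0.0210). Its call was lost without each 24-month pool (up to 0.0862).

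Of 22 tested genes of mitochondrial protein import and folding (28 listed), a list that covers the matrix route, the intermembrane space and carrier routes and the matrix chaperonin, 3 fell and 0 rose by limma, with a median of -0.15. By that test 4.99% of all tested probe sets were called lower and 14.0% higher. HSPD1, the matrix chaperonin, stood at 11.05, 11.32 and 11.66 at 1 month and at 10.57, 10.52 and 10.52 at 24 months, and fell by 0.80 ± 0.17 (adjusted p = 0.0228). HSPE1, its co-chaperonin, stood at 10.85, 11.41 and 11.56 and at 10.38, 10.37 and 10.37, and fell by 0.90 ± 0.20 (adjusted p = 0.0244). TIMM8A, a chaperone of the intermembrane space, stood at 9.36, 9.87 and 9.20 and at 8.51, 8.63 and 8.71, and fell by 0.86 ± 0.19 (adjusted p = 0.0261). In all 3 genes the calf pools lay above the older ones. Each of these calls was lost without any one of the 24-month pools (adjusted p from 0.0844 to 0.104), that of HSPE1 also without 1-month pool 2 (0.0568), and that of TIMM8A also with the actin covariate (0.360). The direction held in each of these fits.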

How the data were processed

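Expression was measured on 6 Affymetrix bovine arrays of 24128 probe sets, each hybridised with RNA pooled from 3 bulls; the ages were taken from the labels. The authors deposited linear intensity values, whose near-equal array medians point to a normalization across arrays by a method not given in the sources used here, with a detection call per probe set and, for 1 month, a detection p-value, which was not used. A second deposited table holds intensity values of unstated normalization. Each of its 6 columns correlated best with the main-table column of the same title. All 84 probe sets of the family matched the RefSeq gene table of ARS-UCD2.0 by gene identifier, and 0 symbols changed.

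Control probe sets (112) were left out, and 13204 probe sets present on at least 3 arrays were fitted as log2(intensity + 16) with limma 3.58.1 (lmFit, eBayes, two-sided) in R 4.3.3, without covariates. The log2 array medians spanned 0.0308, so no further normalization was applied (limit 0.2). Changes on this scale understate those of dim probe sets. The fit assumes 1 spread for both ages. The test was tried on simulated data that also had 1 spread for both ages, so the trial did not cover unequal spread. Replicate numbers 2 and 3 occur in both ages; same-numbered arrays correlated at -0.18 and 0.04 in their deviations, which does not show pairing. Precision is limited by the number of arrays.

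Members were named with values if called, among the 12 smallest p, the brightest, dimmest, most raised or most lowered of a structural group, MRPS18 paralogs or MRPS36; of other lists, called genes or the 2 with the smallest p. Any other name was picked with its values in view. The members and lists were chosen with earlier results of these data known. A bound divides the brighter age's mean by that of the dimmer age, with each dim array raised to its lowest present-called level where the probe set lay below that, which occurred on no array here. Alternatives were another normalization, offset, filter, probe set, variance model or table, the actin ratio as covariate, a replicate block and leaving out each array.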

Additional observations from a re-analysis of the deposited data

How the results depend on the processing

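The count of members called lower was 1 in the fit reported, 2 with quantile normalization, with the mean of all tested probe sets per gene and with the dimmest one, 4 in the second deposited table with quantile normalization and 3 without, 7 with the actin covariate, and 0 to 10 with 1 array left out. With the replicate number as a block it was 0 (MRPL42 -1.15, limma adjusted p = 0.0718). None of the other named calls passed, and over all probe sets 129 were called instead of 2513. The block fit draws the age change from numbers 2 and 3 only, because 1-month pool 1 and 24-month pool 4 share their number with no other array. Same-numbered arrays did not show pairing, so its lost calls are not read as an effect of processing. The count called higher was 0 in every setting except leaving out an array (0 to 2). Calls over all tested probe sets varied too: 2513 in the fit reported, 2379 after quantile normalization and 996 under the actin covariate. They numbered 1641 in the second table after quantile normalization, 1169 there without it, and 526 to 3476 when an array was left out. Where no share of all tested probe sets called lower is given above, the member count is a description. The median, -0.12, was -0.22 with quantile normalization, -0.23 in the second table with it, -0.32 in the second table without normalization, -0.33 with the actin covariate, -0.26 with the block, and -0.24 to 0.012 with 1 array left out. In the second table without normalization the median of all probe sets was -0.07 instead of 0.06, and the members minus all probe sets gave -0.24, against -0.18 in the fit reported. Rises made up 73.8% of all calls in the fit reported, 65.1% after quantile normalization and 72.0% with the mean of probe sets per gene. In the second table they made up 61.9% of all calls with quantile normalization and 56.3% without. Of 474 values of 25 named members under 19 alternatives, 433 kept direction and side of the threshold and 19 gained a call. A further 6 lost a call, all of MRPL42, the only named member with a call to lose. Another 15 changed sign with no call in either fit. For genes with a single probe set some alternatives, such as the dimmest probe set, repeat the reported change. The 433 is thus not a measure of robustness. MRPS18B turned to -1.42 (limma adjusted p = 0.0269) with the actin covariate. The cause of these shifts was not tested. An offset of 1 or 50, median centring, no filter, present calls on all 6 arrays, and a trended robust variance left the count at 1. With 3 arrays per age, changes under about the median interval half-width of 0.49 were not resolved for the typical member. These intervals are not adjusted for the number of tests, and larger changes, such as the -1.17 of MRPL50, also did not pass.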

Other observations

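MRPS9 had a further probe set that was left out for want of present calls (0 of 6 arrays) although it was the brightest of the gene's 3, with a mean intensity of 345. Its levels were 8.21, 8.29 and 8.41 at 1 month and 8.51, 8.80 and 8.66 at 24 months, and with no present call these are signals that were not told from background. The dimmest MRPS9 probe set was tested, with present calls in 1 calf pool and 3 older pools. It stood at 5.33, 5.84 and 6.24 at 1 month and at 6.46, 6.87 and 6.57 at 24 months (0.83 ± 0.25). It too needed the calls of the older pools to pass, so no test is read from it. MRPL39, a mitochondria-specific protein of the large subunit, had a dim probe set with no present call at 1 month and 3 at 24 months. On it MRPL39 stood at 5.18 to 5.27 in the calf pools and 5.46 to 5.74 in the older ones, values from which no test is read because the probe set passed only through the older pools. The brightest MRPL39 probe set gave 0.08 ± 0.17 (limma adjusted p = 0.760). MRPS28 gave 0.33 ± 0.25 and 0.73 ± 0.28 on its 2 probe sets, neither of which passed (limma adjusted p = 0.377 and 0.115).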
